A study of Homo sapiens with 6 samples.

Results

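The genes described here are the human zinc finger genes whose symbol is ZNF followed by a number. Every row of the deposited table with such a symbol and no hyphen was taken, which gave 605 rows, and the 276 of them with at least 1 FPKM in at least 3 of the 6 libraries were kept. FPKM is a fragment count divided by the length of the transcript and by the mapped depth of the library. Another 84 of the 605 rows were listed at 0 in every library. The members were thus selected on their own expression values, with no regard to group, and are 276 of the 13261 genes that passed the same threshold. Only ZNF91 passed through 1 group alone: its 3 K29Q libraries were at or above 1 FPKM and its 3 WT libraries below. Its direction and the lack of overlap between its groups were thus set by the threshold, though not the size of its difference. Just inside the threshold lay ZNF815P and ZNF525, where the third value from the top was 1.004 and 1.01 FPKM, and just outside lay ZNF124 and ZNF589, with 0.992 and 0.988.

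RNA came from the human colon cancer line HCT116, in which PHF5A was stably expressed either as the wild-type protein (WT, 3 libraries) or with a glutamine in place of a lysine (K29Q, 3 libraries). PHF5A is a subunit of the SF3B part of the U2 snRNP, which recognises the branch site of introns, and glutamine is often used to imitate an acetylated lysine. Nothing in the sources used here says whether the 3 libraries of a group were separate cultures or separate stable lines, so the p-values speak only of how these 6 libraries scatter, and part of that scatter may be technical. The comparison asks how the transcripts of the family differed between the forms of PHF5A.

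Most ZNF proteins bind DNA through a row of C2H2 zinc fingers, small folds in which a pair of cysteines and a pair of histidines hold a zinc ion. Many also carry a KRAB domain, which recruits the corepressor TRIM28 and, through it, the histone H3K9 methyltransferase SETDB1, and the KRAB members are known for silencing transposable elements. The genes arose by repeated duplication, and many stand side by side on chromosome 19.

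Translation of the coding sequences of GENCODE 29 showed the repeat on which the family is built. The 84 bases that code for 1 finger and the linker to the next are shown for 3 KRAB members among the higher genes, written 5′ to 3′ on the coding strand, with the codons of the zinc-binding cysteines and histidines in capitals. They are residues 261 to 288 of the 903-residue ZNF808 protein, residues 268 to 295 of the 1191-residue ZNF91 protein and residues 271 to 298 of the 697-residue ZNF12 protein.

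ZNF808: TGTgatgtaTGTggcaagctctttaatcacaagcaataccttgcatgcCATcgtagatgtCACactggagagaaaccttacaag

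ZNF91: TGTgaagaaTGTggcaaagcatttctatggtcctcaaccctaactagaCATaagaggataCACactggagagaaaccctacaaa

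ZNF12: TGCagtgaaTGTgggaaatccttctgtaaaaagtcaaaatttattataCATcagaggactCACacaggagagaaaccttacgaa

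These repeats had a GC content of 42.9%, 41.7% and 36.9%. A finger was counted wherever the translated sequence held the C2H2 spacing pattern. Of the 268 protein-coding members 250 held at least 2 fingers, the median was 9 and the highest number was 35. The other 18 held 1 or none by this pattern. A short motif resembling the start or end of the KRAB A box was found in 130 coding members and not in 138. The remaining 8 members are pseudogenes with no coding sequence. The KRAB-like members had a median of 12 fingers, against 7 in the coding members without the motif.

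The levels of the family were low. The median of the members' mean FPKM over the 6 libraries was 2.63, against 5.20 over all genes tested, and ran from 0.911 to 33.0. Only 57 members reached a mean of 5 FPKM and 21 a mean of 10. The KRAB-like members had a median level of 2.004 FPKM and the coding members without the motif 3.68 FPKM. In all, 230 members were at or above 1 FPKM in each of the 6 libraries.

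The 5 members with the highest mean levels carried no KRAB-like motif, and none of them differed past the threshold. ZNF428 led, with FPKM of 31.8, 34.4 and 37.7 in WT 1 to 3 and 34.9, 30.3 and 29.0 in K29Q 1 to 3. ZNF503, a transcriptional corepressor, had 26.3, 26.9 and 31.4 FPKM in WT and 29.8, 22.4 and 23.2 in K29Q. In both genes the groups overlapped, because K29Q 1 lay among the WT libraries. ZNF385A, an RNA-binding partner of p53, had 24.3, 24.6 and 27.7 FPKM in WT and 27.2, 25.7 and 24.97 in K29Q. ZNF768 had 21.9, 24.3 and 25.8 FPKM in WT and 24.0, 23.1 and 20.7 in K29Q. In both the 2 groups overlapped. ZNF579 was the least even of the 5, with 15.4, 14.8 and 30.2 FPKM in WT and 30.5, 20.8 and 23.9 in K29Q.

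Estimated from the steps between low values, depth ran from 33600000 fragments (K29Q 3) to 40000000 (K29Q 2), so that 1 FPKM of a transcript of the members' median length would be 137 to 164 fragments. Of 7 markers of colon epithelium 6 were at or above 1 FPKM in all 6 libraries (VIL1 had a mean of 0.0726), while 0 of 4 leukocyte markers, 1 of 4 fibroblast markers (COL1A1, mean 4.97 FPKM) and 0 of 3 endothelial markers were. The summed epithelial markers lay between 1247 and 1400 FPKM in WT and between 1146 and 1200 in K29Q. PHF5A itself had 32.4, 34.4 and 32.7 FPKM in WT and 41.4, 45.9 and 45.04 in K29Q, and KDM3A, the demethylase named in the series title, had 4.32, 4.28 and 3.96 in WT and 5.32, 6.59 and 5.55 in K29Q. Neither passed the threshold in the limma fit (adjusted p of 0.110 and 0.235), while PHF5A passed it after the correction for GC content and length (limma, adjusted p = 0.0209), though not with a term for the sequencing run (0.0793) or for the replicate number (0.143, a replicate block) added. Gene totals do not show which form of PHF5A a fragment came from.

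Between the groups the family leaned towards higher values in K29Q, by small amounts. Log2 fold changes here are differences of mean log2(FPKM + 1), K29Q minus WT, which understate the change of low genes. The median over the 276 members was 0.07, with an interquartile range from -0.03 to 0.20, against a median of 0.00 over all genes tested. Of the members 185 lay above 0 and 91 below. The median depended on which members were counted: it was -0.03 over the 57 members with a mean of at least 5 FPKM and 0.02 over the 521 ZNF rows above 0 in at least 1 library. Under quantile normalization it was 0.04. No member passed an adjusted p of 0.05 (limma, Benjamini-Hochberg over 13261 genes), a threshold that 0.0528% of all genes tested passed. The lowest adjusted p of a member was 0.0837 (limma), for ZNF808.

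At an unadjusted p under 0.05 (limma), 42 members were higher in K29Q and 0 lower. That is 15.2% of the members, where 7.65% of all genes tested were called higher and 4.89% lower. In 48 members (17.4%) every K29Q library lay above every WT library, and in 7 (2.54%) every K29Q library lay below. Over all genes tested the shares of such genes were 8.8% and 9%. ZNF91 is among both the 42 and the 48, and its place in the 48 was fixed by the way it passed the expression threshold. The histogram of the members' fold changes shows the lean as a right shoulder between 0.1 and 0.4, made of both KRAB-like members and others.

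**Figure D1:**
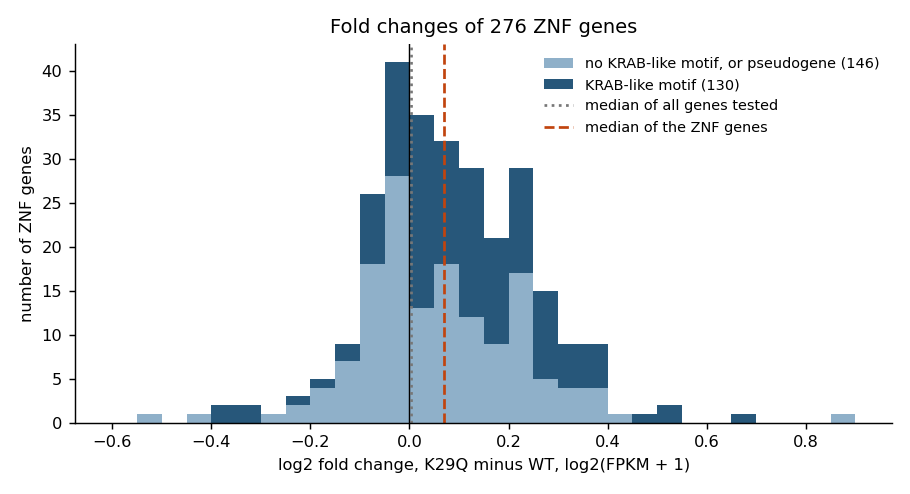
Number of ZNF genes (vertical axis) by log2 fold change, K29Q minus WT, on the log2(FPKM + 1) scale (horizontal axis), stacked for 130 KRAB-like genes (dark) and the 146 others (light), with the medians of the 276 ZNF genes (dashed) and of all genes tested (dotted). The ZNF median lay at 0.07, and 185 of the 276 genes lay above 0.

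The 42 members had ratios of mean FPKM, K29Q over WT, from 1.18 to 2.33 with a median of 1.33. The 8 largest log2 fold changes among those whose groups did not overlap belonged to ZNF292, ZNF808, ZNF860, ZNF12, ZNF638, ZNF770, ZNF91 and ZNF160, of which 5 are KRAB-like. ZNF302, named after its values were seen, had a log2 fold change of 0.54, but its groups overlapped. The 8 smallest log2 fold changes among the members at that threshold with groups that did not overlap were also positive. They ran from 0.19 in ZNF8, through ZNF326, ZNF600, ZNF704, ZNF280C, ZNF211 and ZNF608, to 0.24 in ZNF724P, and none of these 8 had an adjusted p under 0.05 (limma; the lowest was 0.324, for ZNF608).

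ZNF808 is a KRAB protein that silences a class of endogenous retroviral repeats and is needed for the human pancreas to form. It lies on chromosome 19 from 52527652 to 52564464 (GRCh38, plus strand, ENSG00000198482) and had the smallest p of the family. Its FPKM was 1.42, 1.13 and 1.07 in WT 1 to 3 and 2.36, 2.36 and 2.79 in K29Q 1 to 3. Every K29Q library stood well above every WT library. Mean FPKM was 1.20 ± 0.190 (SD, n = 3) for WT and 2.504 ± 0.251 (SD, n = 3) for K29Q, which gave a ratio of 2.08. The log2 fold change was 0.67 with a standard error of 0.09 (limma, adjusted p = 0.0837).

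ZNF91, on chromosome 19 from 23304991 to 23395560 (minus strand), is the KRAB protein known for repressing SVA retrotransposons, and it holds 32 fingers. It had 0.638, 0.719 and 0.791 FPKM in WT and 1.25, 1.13 and 1.39 in K29Q. The groups were apart, as the way it passed the threshold required. The ratio of means was 1.75 and the log2 fold change 0.39 with a standard error of 0.08.

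ZNF12, a KRAB gene on chromosome 7 from 6688433 to 6706923 (minus strand), had 2.83, 1.87 and 2.51 FPKM in WT. In K29Q it had 3.66, 3.77 and 3.81 FPKM. The K29Q values were tight and the WT values were not, with WT 1 the nearest to K29Q. The ratio was 1.56 and the log2 fold change 0.49 with a standard error of 0.11 (limma, adjusted p = 0.242).

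ZNF860, a KRAB gene on chromosome 3, had 1.11, 0.396 and 0.539 FPKM in WT and 1.497, 1.29 and 1.37 in K29Q. ZNF160, a KRAB gene on chromosome 19, had 1.49, 1.33 and 0.910 FPKM in WT and 1.88, 1.89 and 1.97 in K29Q. WT 1 was the highest WT library in both. The ratios of means were 2.03 and 1.54, with adjusted p-values of 0.344 and 0.325 (limma).

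ZNF292, a large finger protein mutated in a neurodevelopmental disorder, had the largest fold change of the 276 and a wide spread. Its FPKM was 0.471, 1.44 and 2.39 in WT and 2.88, 2.58 and 4.55 in K29Q. The highest WT library lay close under the lowest K29Q library. The ratio was 2.33, and the log2 fold change of 0.89 had a standard error of 0.31 (limma, adjusted p = 0.374).

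ZNF638, which binds DNA and RNA and takes part in the silencing of unintegrated retroviral DNA, had 5.00, 3.39 and 3.77 FPKM in WT and 5.63, 5.32 and 6.54 in K29Q. ZNF770 had 11.7, 8.36 and 8.30 FPKM in WT and 12.8, 11.9 and 13.1 in K29Q, and 31.9% of its transcript is shared with another annotated gene that overlaps it. Both had WT 1 just below the K29Q libraries and the other WT libraries well below. Their ratios were 1.44 and 1.34.

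**Figure D2:**
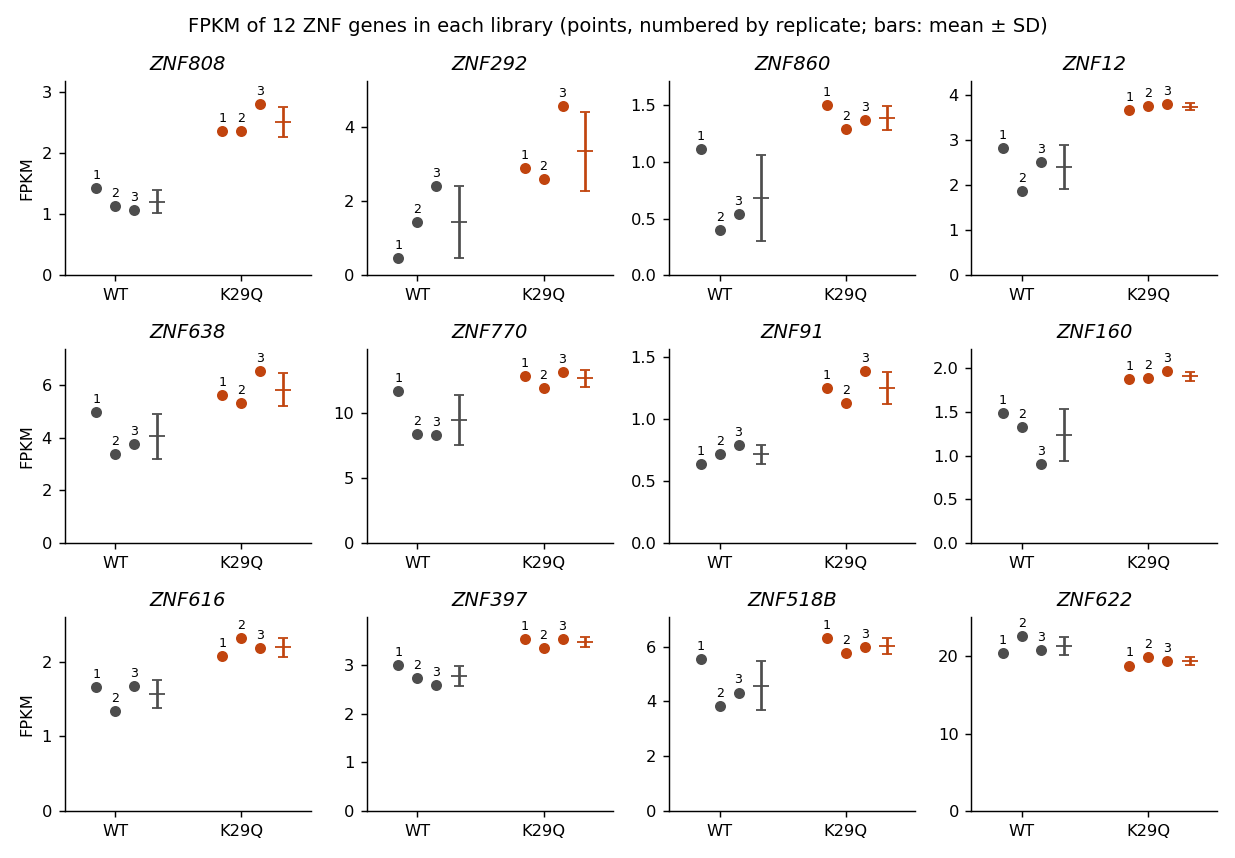
FPKM (vertical axis, from 0) of 12 ZNF genes in each library, WT in grey and K29Q in orange, each point numbered by its replicate, with mean ± SD (n = 3) at the right of each group. The first 8 panels are the members with the largest fold changes among those at an unadjusted p under 0.05 whose groups did not overlap, with ZNF808 at 1.07 to 1.42 FPKM in WT and 2.36 to 2.79 in K29Q; ZNF622 is the one shown that was lower in K29Q.

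The members at the other end were few and uneven. ZNF622, a ribosome biogenesis factor that acts on the large subunit, had the smallest p among members below 0, with 20.5, 22.6 and 20.8 FPKM in WT and 18.8, 19.9 and 19.4 in K29Q. All 3 K29Q libraries lay below all 3 WT libraries, and the ratio was 0.910 (limma, adjusted p = 0.444). The other 6 members whose K29Q libraries all lay lower, named here after their values were seen, were ZNF697, ZNF213, ZNF185, ZNF646, ZNF544 and ZNF593, with log2 fold changes between -0.12 and -0.05. The most negative values came from genes with discordant libraries, also singled out after their values were seen. ZNF513 had a log2 fold change of -0.54, with 3.08, 11.9 and 13.2 FPKM in WT and 5.22, 8.22 and 3.25 in K29Q. ZNF264 had 3.31, 3.32 and 2.80 FPKM in WT and 0.359, 3.79 and 4.59 in K29Q, where K29Q 1 alone was low and the other two lay at or above the WT libraries. In 26 members (9.42%) the highest library of a group exceeded the lowest of the same group by more than 2-fold, against 6.00% of the other genes tested.

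WT 1 stood closer to the K29Q libraries than WT 2 and WT 3 did. In 37 of the 42 members it was the highest of the 3 WT libraries. The members' median deviation from their mean over the 6 libraries, in log2, was 0.01 in WT 1, -0.06 in WT 2 and -0.08 in WT 3, and 0.05, 0.03 and 0.06 in K29Q 1 to 3. Without WT 1 the counts at an unadjusted p under 0.05 were 78 higher and 1 lower, and without K29Q 3 they were 19 higher and 2 lower. Leaving out WT 1 also raised the counts over all 13261 genes tested, from 1015 higher and 649 lower to 1911 and 805. Such counts are not given here for leaving out K29Q 3, so whether the family alone moved there cannot be told. The libraries fall into 2 sequencing runs by the names in the column headers, taken here as flow cells. K29Q 1, K29Q 2 and WT 2 were on the first (A), and K29Q 3, WT 1 and WT 3 on the other (B). The median over the 276 members was 0.09 in A and 0.10 in B. All 42 members were higher in K29Q within both, but they had been called higher on these same 6 libraries. Their direction within each run was thus largely set by that choice and is no separate support.

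The fold change followed the GC content of the transcript, in the family as in other genes. Across the 276 members the correlation of the log2 fold change with the GC content of the longest transcript was -0.56 (Pearson) and -0.66 (Spearman), and across 12832 other genes -0.36 and -0.42. These correlations run across genes that share the same 6 libraries and are descriptions. Of the 42 members 39 had a GC content of at most 45%. ZNF genes are poorer in GC where they carry the KRAB-like motif, with a median of 43.1% against 51.6% without it.

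Within classes of GC content the members were at an unadjusted p under 0.05 (limma), higher, more often than the other genes up to 50% GC, and not above it. Up to 40% GC, 22 of 48 members (45.8%) were higher at an unadjusted p under 0.05 (limma), against 22.7% of other genes, and the median log2 fold changes were 0.25 and 0.15. From 40% to 45% GC, 17 of 83 members (20.5%) and 11.9% of other genes were, with medians of 0.14 and 0.06. From 45% to 50% GC, 3 of 47 members (6.38%) and 4.80% of other genes were. Above that the counts were 0 of 58 members from 50% to 60% GC, against 2.86% of other genes, and 0 of 40 over 60%, against 1.43%. The medians of members and other genes were 0.02 and -0.01 from 45% to 50% GC. They were 0.01 and -0.04 from 50% to 60% GC, and -0.04 and -0.05 over 60%. After a correction for GC content and length, described below, 8 of 48 members (16.7%) up to 40% GC were higher at that threshold. Of other genes in that class 7.503% were. From 40% to 45% GC 13 of 83 members (15.7%) were, against 7.805% of other genes. From 45% to 50% GC 5 of 47 members (10.6%) were, against 6.13%. From 50% to 60% GC 8 of 58 members (13.8%) were, against 6.78%. Over 60% GC 1 of 40 members (2.5%) was, against 7.17%. The difference between members and other genes within a class was not tested.

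**Figure D3:**
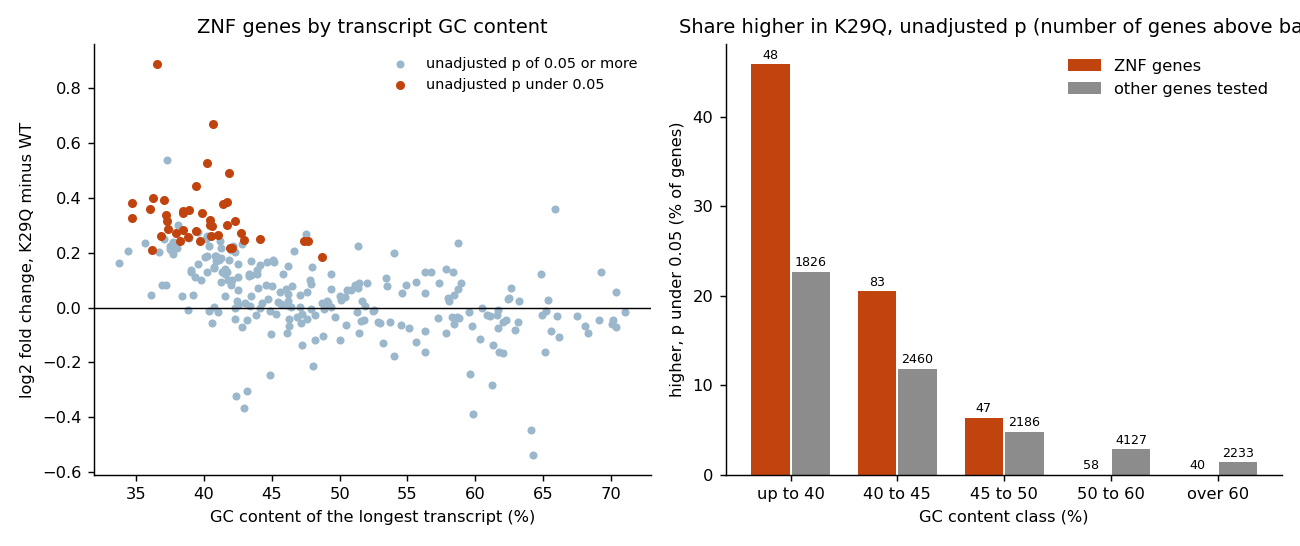
Left, log2 fold change (K29Q minus WT) of each ZNF gene against the GC content of its longest transcript in percent, with genes at an unadjusted p under 0.05 in orange. Right, the share of ZNF genes (orange) and other genes tested (grey) higher in K29Q at that threshold, by GC class, with the number of genes above each bar; the shares were 45.8% and 22.7% in the lowest class and 0% and 1.43% in the highest.

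The lean was smaller once the dependence on transcript GC content and length had been fitted and subtracted library by library. The fit ran over all genes, and some GC trend stayed within the members. Across them the correlation of the corrected change with GC content was -0.168 (Pearson) and -0.195 (Spearman), and across the other genes 0.046 and 0.049. The members' median became 0.03, with 178 above 0 and 98 below. At an unadjusted p under 0.05 (limma) 35 members (12.7%) were then higher and 1 (0.362%) lower, where 7.16% of the genes tested were higher and 7.89% lower. Of the 42 members above, 41 lay above 0 after the correction and 24 were at an unadjusted p under 0.05. ZNF808 alone passed the adjusted threshold, with a log2 fold change of 0.56 (limma, adjusted p = 0.0211), in a fit where 0.633% of all genes passed it. Its adjusted p was 0.0707 (limma) when a flow cell term was added to that correction and 0.164 (limma) with the replicate block, so that this call was lost under both. ZNF91 lay at 0.22, ZNF12 at 0.40 and ZNF292 at 0.67 in that fit, none of them past the adjusted threshold. With the same correction the library medians of the family were -0.01, -0.03 and -0.02 in WT 1 to 3 and 0.03, 0.02 and 0.02 in K29Q 1 to 3. In the family medians WT 1 lay below all 3 K29Q libraries both before and after the correction. Before it this also held for the KRAB-like members. It did not hold for the members without the motif, where WT 1 was at 0.006 and K29Q 2 at 0.005. The part of library composition in the remaining lean was not tested.

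**Figure D4:**
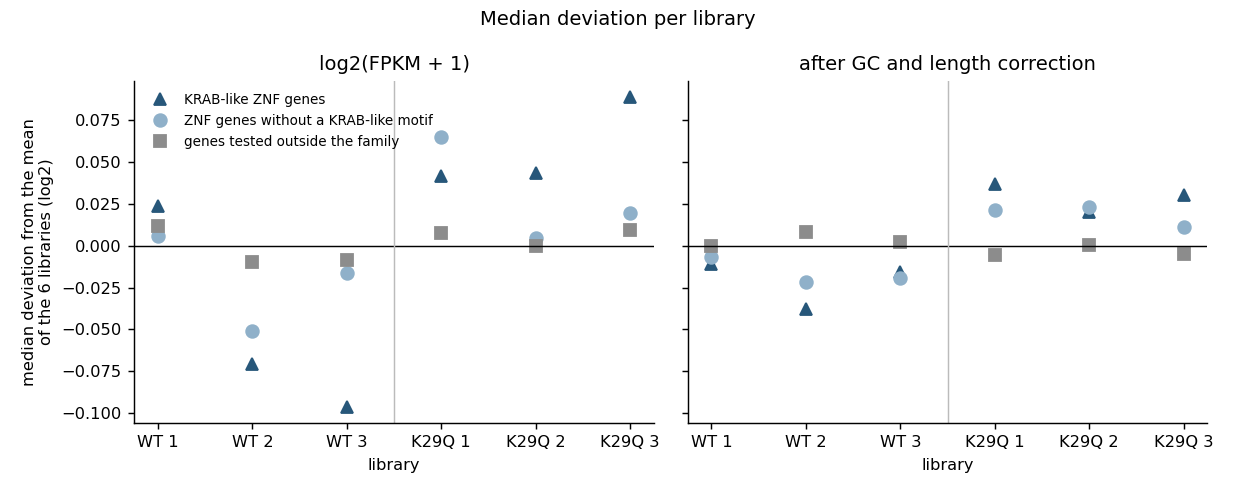
Median deviation of each gene class from the mean of the 6 libraries (vertical axis, log2) in each library, before (left) and after (right) the GC and length correction; triangles are KRAB-like ZNF genes, circles ZNF genes without the motif and squares the genes tested outside the family. After the correction both ZNF classes lay below 0 in the 3 WT libraries and above 0 in the 3 K29Q libraries, while the other genes stayed within 0.01 of 0.

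Among the KRAB-like members 101 of 130 lay above 0 and the median log2 fold change was 0.10, while among the 138 coding members without the motif 77 lay above 0 and the median was 0.04. At an unadjusted p under 0.05 (limma) 23 (17.7%) and 19 (13.8%) were higher, and none was lower in either class. Over all genes tested 7.65% were higher and 4.89% lower. Groups did not overlap upwards in 28 KRAB-like members (21.5%) and downwards in 1 (0.769%). Among members without the motif they did not in 20 (14.5%) and 6 (4.35%), where the shares over all genes tested were 8.8% and 9%. After the GC and length correction the medians were 0.04 and 0.03. Before the correction 10 of 28 KRAB-like members (35.7%) in the lowest GC class were higher at an unadjusted p under 0.05 (limma). Of members without the motif 12 of 18 (66.7%) were, and of other genes in that class 22.7%. After the correction these were 4 of 28 (14.3%), 4 of 18 (22.2%) and 7.503%. Before the correction the 8 pseudogenes had a median of 0.13, with 7 above 0. At an unadjusted p under 0.05 (limma) 0 of them were called in either direction, and 0 passed the adjusted threshold.

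Chromosome 19 held 96 members, of which 70 lay above 0, with a median of 0.08 and 14 at an unadjusted p under 0.05. Elsewhere 115 of 180 members lay above 0, with a median of 0.06 and 28 at that threshold. Those are 14.6% and 15.6%, all higher, where 7.65% of all genes tested were higher. One run on the long arm, from 51571298 to 53458261 (ZNF175 to ZNF761), held 17 members, all KRAB-like. In it 16 lay above 0 and 4 were at an unadjusted p under 0.05: ZNF808, ZNF160, ZNF600 and, named after its values were seen, ZNF616. ZNF616 had 1.66, 1.34 and 1.68 FPKM in WT and 2.07, 2.32 and 2.18 in K29Q. ZNF600 had 1.27, 0.980 and 1.13 FPKM in WT and 1.43, 1.54 and 1.44 in K29Q. In both every K29Q library was above every WT library.

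The run's median log2 fold change was 0.19, and its median GC content 41.2%. After the GC and length correction its median was 0.05. A second run near the end of the chromosome, from 57191500 to 58481230 (ZNF264 to ZNF446), held 22 members, 19 of them KRAB-like, with a median of 0.02, 2 members at an unadjusted p under 0.05 and a median GC content of 46.2%. Another run between them, from 55476332 to 56160893, held 9 members without the motif, with a median of -0.01 and a median GC content of 64.9%. The runs named here thus differed in their medians in the order of their GC content. After the GC and length correction that order was not kept, with 0.03 in the second run and 0.06 in the run between. Other chromosome 19 runs were not all in that order either, with medians of 0.09, 0.05 and 0.07 at 42.2%, 43.3% and 43.7% GC. The difference between runs was not tested.

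The promoters of the family are shown for ZNF808 and ZNF616, which had the smallest p-values in the run of 17. Each is 300 bases of RefSeq sequence (GRCh38.p14) on the gene's own strand, 5′ to 3′, with matches to searched motifs in capitals: chr19:52527418-52527717 (plus strand) and chr19:52139889-52140188 (minus strand).

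ZNF808: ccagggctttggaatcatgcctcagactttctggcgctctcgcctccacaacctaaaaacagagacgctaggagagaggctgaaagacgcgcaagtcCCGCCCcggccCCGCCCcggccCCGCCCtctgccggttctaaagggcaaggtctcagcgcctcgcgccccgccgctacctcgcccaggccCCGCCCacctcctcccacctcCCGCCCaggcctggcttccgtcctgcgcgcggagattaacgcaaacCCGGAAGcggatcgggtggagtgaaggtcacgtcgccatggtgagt

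ZNF616: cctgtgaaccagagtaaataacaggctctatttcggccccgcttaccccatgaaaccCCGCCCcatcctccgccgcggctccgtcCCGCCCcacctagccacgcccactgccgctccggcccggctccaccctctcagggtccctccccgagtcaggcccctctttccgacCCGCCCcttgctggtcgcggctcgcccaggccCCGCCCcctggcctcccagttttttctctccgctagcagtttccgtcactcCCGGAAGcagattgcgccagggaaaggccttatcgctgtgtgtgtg

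Both hold the core letters of an ETS site, CCGGAAG, and repeated GC boxes, GGGCGG, here read on the other strand. Promoters were found for 225 of the 276 members by symbol, and 5 motifs were searched on both strands. CCGGAAG stood in 93 of the 225 (41.3%), against 19.5% of 8610 other genes tested and 10.7% of all 27305 promoters. GGGCGG stood in 68.0% of the members, 72.9% of other genes tested and 44.6% of all promoters. CCAAT stood in 44.4%, 36.7% and 35.7%, GATGGCG in 8%, 8.07% and 4.35%, and TATAAA in 2.22%, 4.88% and 11.95%. The members' promoters had a median GC content of 63.3%, against 66.0% for the other genes tested. Members with CCGGAAG had a median log2 fold change of 0.06, with 12 of 93 at an unadjusted p under 0.05, and members without it 0.09, with 23 of 132. A match is a run of letters and says nothing of binding in these cells.

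By the roles of the proteins, members with a SCAN domain, which pairs zinc finger proteins with one another, had 19 of 22 listed genes tested. Of these 15 lay above 0, the median was 0.09, and 2 were at an unadjusted p under 0.05 (limma), both higher. After the GC and length correction the median was still 0.09 and 7 were at that threshold, all higher. Those are 10.5% and 36.8% of the list, where 7.65% of all genes tested were higher before the correction and 7.16% after it. ZNF397 had 3.00, 2.73 and 2.58 FPKM in WT and 3.54, 3.35 and 3.53 in K29Q. ZNF24, a regulator of cell proliferation, had 10.2, 7.62 and 7.76 FPKM in WT and 11.5, 10.4 and 11.0 in K29Q. Both had non-overlapping groups, whereas those of ZNF165, a gene otherwise known from testis and tumours, overlapped, with 3.58, 2.98 and 2.77 FPKM in WT and 3.38, 3.86 and 3.93 in K29Q. ZNF274, which recruits SETDB1 to the 3′ ends of ZNF genes themselves, had 1.59, 1.48 and 1.42 FPKM in WT and 1.61, 1.54 and 1.72 in K29Q. Its ratio was 1.08, and its 95% interval for the log2 fold change ran from -0.09 to 0.23.

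Of 23 members that act as chromatin and transcription cofactors 17 lay above 0, with a median of 0.06, and 4 were at an unadjusted p under 0.05, all higher: ZNF292, ZNF518A, ZNF518B and ZNF644. That is 17.4%, where 7.65% of all genes tested were higher. After the GC and length correction the median was 0.01, with ZNF518A at 0.09. Only 1 of the 23 (4.35%) was then higher at that threshold, where 7.16% of all genes tested were. ZNF518B, a partner of the H3K9 methyltransferase G9a, had 5.56, 3.85 and 4.32 FPKM in WT and 6.32, 5.76 and 5.97 in K29Q. ZNF518A had 1.34, 1.11 and 0.831 FPKM in WT and 1.51, 1.51 and 1.84 in K29Q. WT 1 again lay nearest to the K29Q libraries in both.

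The 12 members with roles on RNA, ribosomes or the spindle had a median of -0.01, with 5 above 0 and 7 below. The 2 at an unadjusted p under 0.05 were ZNF638 and ZNF326, both higher in K29Q, and after the GC and length correction 1 was. Those are 16.7% and 8.33%, beside 7.65% and 7.16% of all genes tested. ZNF326, a subunit of a complex that couples RNA polymerase II to exon inclusion, had 2.93, 2.55 and 2.46 FPKM in WT and 3.22, 3.09 and 3.32 in K29Q. Its GC content is 36.1%, and after the GC and length correction its log2 fold change was -0.01, against 0.21 before. ZNF622 belongs to the same list.

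The corepressor that KRAB proteins recruit was not among the higher genes. TRIM28 had 122, 130 and 138 FPKM in WT and 126, 116 and 117 in K29Q, with K29Q 1 inside the WT range. SETDB1 had 5.60, 5.87 and 5.73 FPKM in WT and 5.88, 6.16 and 5.77 in K29Q. Of the 19 listed genes of KRAB corepression and H3K9 methylation 14 lay above 0, with a median of 0.08, and 4 were at an unadjusted p under 0.05 (limma), all higher: ATRX, FAM208A, SMARCAD1 and CBX3. That is 21.1%, beside the 7.65% of all genes tested. ATRX, a chromatin remodeller, had 2.62, 1.76 and 1.80 FPKM in WT and 3.17, 3.08 and 3.66 in K29Q (limma, adjusted p = 0.277). FAM208A, a core subunit of the HUSH silencing complex also called TASOR, had 5.15, 3.76 and 3.99 FPKM in WT and 5.79, 5.02 and 5.82 in K29Q. SMARCAD1, a remodeller that binds TRIM28, had 6.30, 4.65 and 4.67 FPKM in WT and 6.68, 6.19 and 7.34 in K29Q. In ATRX the groups did not overlap, and in FAM208A and SMARCAD1 the lowest K29Q library, K29Q 2, lay just under WT 1. After the GC and length correction the list had 10 genes above 0 and 9 below and a median of 0.03, with FAM208A at 0.10. Then 2 (10.5%) were at an unadjusted p under 0.05 (limma), both higher, beside 7.16% of all genes tested.

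Before the GC and length correction, related finger genes with other names had medians of like size. Of 40 tested ZBTB genes, whose proteins join C2H2 fingers to a BTB domain, 31 lay above 0, with a median of 0.08 and 8 (20%) at an unadjusted p under 0.05, all higher. Of 27 genes named ZFP, ZSCAN or ZKSCAN 21 lay above 0, with a median of 0.09 and 3 (11.1%) at that threshold, all higher. Over all genes tested 7.65% were higher. After the correction the ZBTB median was 0.07, with 4 genes (10%) higher and 1 (2.5%) lower at that threshold. That of the ZFP, ZSCAN and ZKSCAN genes was 0.06, with 3 (11.1%) higher and 0 lower. Over all genes tested 7.16% were higher and 7.89% lower after the correction. The median of the ZNF members was then 0.03. No difference between these families and the ZNF genes was tested.

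Duplicated genes share sequence, and how the reads of such copies were divided is not given in the sources used here. No stretch of at least 150 bases at 98% identity or more with another gene was found in 201 members, while in 46 more than 10% of the transcript was shared and in 11 more than 50%, among them the pair ZNF468 and ZNF320 and the pair ZNF286A and ZNF286B. The values of these members are uncertain. Only 4 of the 42 members shared more than 10%: ZNF770, ZNF354A, ZNF8 and ZNF724P. Another annotated gene overlapped 188 members, and a coding one 86, and whether the counting used strand is not given. Of the 88 members that overlapped no gene 15 (17.0%) were at an unadjusted p under 0.05, all higher, where 7.65% of all genes tested were higher.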

How the data were processed

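RNA sequencing of 3 WT and 3 K29Q HCT116 libraries was analysed from 1 deposited table of FPKM values per gene. The authors aligned reads to GRCh38 with HISAT2 2.1.0 and used StringTie, per the submitters' processing notes (annotation release and strand setting: not given in the sources used here). FPKM are not counts, so log2(FPKM + 1) of the 13261 genes at or above 1 FPKM in at least 3 libraries was fitted with limma 3.58.1 (R 4.3.3, intensity trend, group the only term, two-sided), with Benjamini-Hochberg adjustment over all of them and a threshold of 0.05. The script was tested on simulated data. Positions, gene types, GC content and length came from GENCODE 29 by gene ID (276 of 276 members), and GC and length trends were fitted by loess per library (span 0.5, 13108 genes). Shared sequence was found with BLAST+ 2.17.0.

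The members and gene lists were chosen with earlier results of these data known. Named genes were members past the adjusted threshold in either fit, the 8 largest and 8 smallest fold changes among members at an unadjusted p under 0.05 with groups that did not overlap (all of them higher in K29Q), the 5 highest levels, 2 genes on each side of the expression threshold, up to 3 genes with the smallest p per list, PHF5A, KDM3A, TRIM28, SETDB1, ZNF274 and ZNF91. Names outside this rule were picked with their values in view and are so marked, except where a gene completes a count or illustrates shared sequence.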

Additional observations from a re-analysis of the deposited data

How the results depend on the processing

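No member passed an adjusted p of 0.05 (limma) in any alternative except the GC and length correction, where 1 did. The 42 members at an unadjusted p under 0.05 became 6 of 57 with a mean FPKM of at least 5 and 15 of 88 without members that overlap another gene, and ran from 21 (without K29Q 3) to 79 (without WT 1) when 1 library was left out, with 25 without WT 2 and 22 without WT 3. Without WT 1 the counts over all genes tested rose as well, from 1015 higher and 649 lower to 1911 and 805. For the other libraries left out, the higher mean level, the flow cell term and the replicate block such counts are not given here. Whether the family alone moved in those settings cannot be told. The median of 0.0697 fell to 0.0167 with no filter on low values, reversed to -0.0264 with a mean FPKM of at least 5, was 0.0363 under quantile normalization and ran from 0.0585 to 0.0826 with 1 library left out. The 55 members whose groups do not overlap became 88 with no filter, 10 with a mean FPKM of at least 5 and 20 without overlapping members, and ran from 67 to 122 (without WT 1, and 99 without K29Q 1) with 1 library left out. Leaving out a library can never lower this count, since groups that are apart stay apart. The rise above 55 therefore does not show how the count depends on a library. Among single genes with values near 0, ZNF385A reversed without WT 1 (-0.0091), WT 2 (-0.0013) or K29Q 1 (-0.0095), in a range up to 0.0819, and ZNF815P under quantile normalization (-0.005), with a flow cell term (-0.0102) and without WT 3 (-0.0124, in a range up to 0.0725 with 1 library left out). ZNF326 reversed with the GC and length correction alone (-0.013), with it and the replicate block (-0.013) and with it and a flow cell term (-0.0366). The cause of these changes was not tested. A flow cell term alone gave 53 members, all higher. Members with symbols of digits alone (248) gave 34 and those sharing at most 10% of their transcript (230) gave 38, all higher; both settings were chosen after seeing the data.

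The replicate numbers did not pair the libraries (correlations of same-numbered deviations of -0.14, 0.179 and -0.165). With the replicate number as a block 38 members were at an unadjusted p under 0.05, all higher, 0 passed the adjusted threshold and the median was 0.0697. A block does not apply to the count of groups that do not overlap.

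With 3 libraries a group and a median level of 2.63 FPKM, small differences in single members were not resolvable here, and a p over the threshold does not show equal levels.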
